A study of Mus musculus with 6 samples.

Results

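The binding sites of ZFP57 in BJ1 embryonic stem cells (ESCs) were compared with the KAP1 binding sites of the same line. All 1252 autosomal ZFP57 peaks of BJ1 were taken and divided by whether they shared at least 1 bp with a BJ1 KAP1 peak. This gave 690 ZFP57 peaks with KAP1 and 562 without. The 4 peak lists of the series hold 123233 peaks in all, and 66 ZFP57 peaks of BJ1 on the sex chromosomes were set aside.

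BJ1 is a male mouse ESC line derived from an F1 hybrid with a B6 mother and a JF1 father, and JB1 is the male line of the reciprocal cross. B6 is a *Mus musculus domesticus* strain and JF1 a *Mus musculus molossinus* strain. Both lines were grown without feeder cells in medium with serum and LIF, and the labels and the study's methods give different serum shares. Chromatin was cross-linked with formaldehyde, sonicated and immunoprecipitated with an antibody against ZFP57 or against KAP1. Each line and antibody had 1 library, so no replicate shows how far a peak list varies, and each line stands for a single culture. The lists hold positions only, which leaves read depth and peak height unknown.

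ZFP57 is a KRAB zinc finger protein that recognises the methylated hexanucleotide TGCCGC. Through its KRAB domain it recruits KAP1 (also called TRIM28), a scaffold for histone H3 lysine 9 methyltransferase, heterochromatin proteins and DNA methyltransferases. At imprinting control regions (ICRs) the pair preserves the DNA methylation of a single parental allele. KAP1 itself does not bind a DNA sequence and is brought to chromatin by many different KRAB zinc finger proteins, which in ESCs silence many repeated elements.

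The sequences of mm9 under 8 ZFP57 peaks below were picked as examples and are not a sample of the classes. None of them holds the repeated 12-mer described below, which was in 229 of 690 peaks with KAP1. All are written from the plus strand, with TGCCGC or its variant GGCCGC in capitals on either strand (GCGGCA and GCGGCC on the minus strand). The first 4 come from peaks with KAP1 near imprinted genes. They are *Peg3* (chr7:6682753-6682902), *Snrpn* (chr7:67149301-67149450), *Kcnq1* (chr7:150481553-150481702) and *Commd1* (chr11:22872364-22872513), where the *Commd1* peak had only the variant.
Peg3: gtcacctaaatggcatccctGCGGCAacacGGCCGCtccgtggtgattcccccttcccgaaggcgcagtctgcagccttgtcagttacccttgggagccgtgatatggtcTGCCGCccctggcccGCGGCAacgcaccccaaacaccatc
Snrpn: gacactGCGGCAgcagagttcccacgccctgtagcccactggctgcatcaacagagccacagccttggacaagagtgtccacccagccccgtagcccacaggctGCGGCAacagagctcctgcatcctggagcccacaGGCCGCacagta
Kcnq1: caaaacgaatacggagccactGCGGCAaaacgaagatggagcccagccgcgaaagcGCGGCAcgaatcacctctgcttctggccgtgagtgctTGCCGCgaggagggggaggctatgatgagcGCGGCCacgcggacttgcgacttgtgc
Commd1: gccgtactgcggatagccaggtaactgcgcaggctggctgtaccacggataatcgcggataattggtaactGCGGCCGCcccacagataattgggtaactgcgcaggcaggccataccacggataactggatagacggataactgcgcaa

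The next pair also comes from peaks with KAP1. The *Zfp629* stretch (chr7:134755553-134755702) lies in the coding sequence of a zinc finger gene, and the other (chr1:173420597-173420746, nearest start *U5*) is part of a tandem array.
Zfp629: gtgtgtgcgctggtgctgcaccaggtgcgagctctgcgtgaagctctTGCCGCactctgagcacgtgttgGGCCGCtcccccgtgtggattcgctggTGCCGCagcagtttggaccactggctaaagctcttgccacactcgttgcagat
U5: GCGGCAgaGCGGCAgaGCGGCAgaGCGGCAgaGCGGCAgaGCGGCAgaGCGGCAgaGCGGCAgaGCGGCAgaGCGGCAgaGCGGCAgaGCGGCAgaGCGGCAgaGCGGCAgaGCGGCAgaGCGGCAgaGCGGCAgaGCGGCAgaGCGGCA

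The last pair comes from peaks without KAP1. *AF529169* (chr9:89535363-89535512) is the nearest gene of an exception with 2 motifs, and *Ank1* (chr8:24206026-24206325) shows a peak at a promoter with none. Similar units recur along the *Ank1* stretch, and no repeat annotation was at hand to name them.
AF529169: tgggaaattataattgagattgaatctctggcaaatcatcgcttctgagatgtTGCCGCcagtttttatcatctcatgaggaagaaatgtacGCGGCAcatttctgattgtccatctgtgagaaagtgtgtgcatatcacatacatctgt
Ank1: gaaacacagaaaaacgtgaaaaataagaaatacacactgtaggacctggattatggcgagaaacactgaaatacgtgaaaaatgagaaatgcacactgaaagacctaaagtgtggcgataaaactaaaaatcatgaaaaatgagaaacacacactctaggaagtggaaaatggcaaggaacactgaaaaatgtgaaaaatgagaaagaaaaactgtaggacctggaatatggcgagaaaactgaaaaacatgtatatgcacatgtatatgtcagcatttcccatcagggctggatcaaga

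KAP1 was found at 690 of the 1252 ZFP57 peaks, or 55.1% (exact Clopper-Pearson 95% interval 52.3 to 57.9). By comparison, 3.06% of all autosomal windows of 450 bp overlapped a BJ1 KAP1 peak. The reverse share was small, as 682 of 68471 KAP1 peaks carried ZFP57, or 0.996% (0.923 to 1.07), and 0.0524% of autosomal windows of 600 bp overlapped a ZFP57 peak. The relation was nearly 1 to 1, with 9 KAP1 peaks holding 2 ZFP57 peaks and 1 ZFP57 peak touching 2 KAP1 peaks. All intervals given here cover counting error only, since peaks of a single library are not replicates.

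ZFP57 peaks with KAP1 were wider. Peaks in the files lay on a grid of 150 bp, and the narrowest measured 300 bp. The median width was 450 bp with KAP1 (interquartile range 450 to 600) and 300 bp without (300 to 450). Of the peaks without KAP1, 383 of 562 (68.1%, 64.1 to 72.0) were at the minimal width, against 156 of 690 with KAP1 (22.6%, 19.5 to 25.9). Only 18 peaks without KAP1 were 750 bp or wider, against 144 with KAP1.

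The share with KAP1 rose at each step of ZFP57 width. It was 28.9% (25.1 to 33.0) of 539 peaks of 300 bp, 66.7% (61.5 to 71.6) of 354 peaks of 450 bp and 78.2% (71.7 to 83.7) of 197 peaks of 600 bp. Of the 76 peaks of 900 bp or more, 71 carried KAP1 (93.4%, 85.3 to 97.8). The intervals of 300, 450 and 600 bp did not overlap, whereas those of neighbouring wider classes did.

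**Figure D1:**
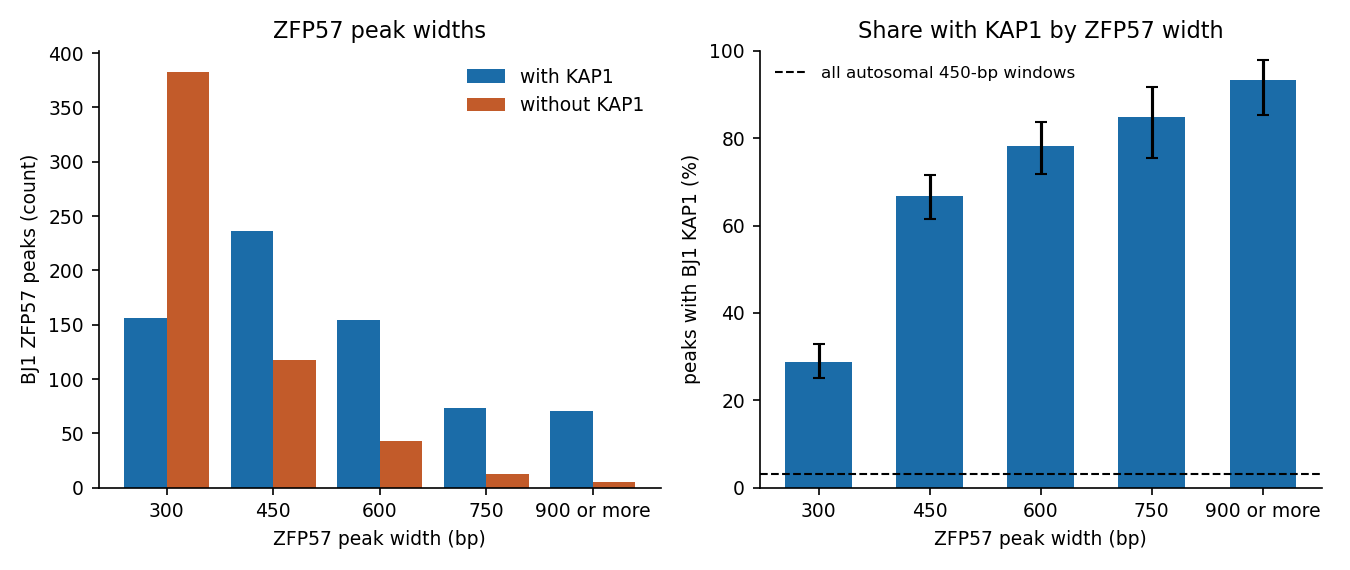
Left, number of autosomal BJ1 ZFP57 peaks by peak width (bp) with (blue) and without (orange) a BJ1 KAP1 peak. Right, percentage of ZFP57 peaks with KAP1 in each width class, with exact 95% intervals as error bars and the 3.06% of all autosomal 450-bp windows as a dashed line; the share climbs from 28.9% at 300 bp to 93.4% at 900 bp or more.

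Very wide peaks stood apart from the rest. The widest peak without KAP1 spanned 58650 bp around *Gm15319* (chr8:19923601-19982250), and the widest with KAP1 spanned 33000 bp around *Gm10060* (chr8:19760851-19793850), exactly the width of its KAP1 peak. Neither overlapped a ZFP57 or KAP1 peak of JB1. At *Dux*, the transcription factor gene of the two-cell stage, a ZFP57 peak of 15450 bp (chr10:57682801-57698250) lay in a KAP1 peak of 29100 bp. These 3 were the only ZFP57 peaks over 5 kb.

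The motif differed between the classes. TGCCGC, on either strand and wholly inside the peak, was present in 533 of 690 peaks with KAP1 (77.2%, 73.9 to 80.3) and in 17 of 562 without (3.02%, 1.77 to 4.80). Among all autosomal windows, 2.76% of those of 450 bp and 1.86% of those of 300 bp contained it. Without KAP1 the share was 3.13% of 383 peaks of 300 bp and 0.847% of 118 of 450 bp. It was 3 of 18 (16.7%, 3.58 to 41.4) of those of 750 bp or wider, against 5.34% of windows of 900 bp. Among these 3 was the peak of 58650 bp at *Gm15319*, far longer than such windows. With only the widest 50% of each list, the share without KAP1 was 12.4% of 209 (8.29 to 17.7). In that setting peaks whose KAP1 peak is narrow count as without KAP1. A gap between the classes was also seen among peaks of equal width, since at 300 bp the motif was in 110 of 156 peaks with KAP1 (70.5%) and in 12 of 383 without (3.13%).

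Peaks with KAP1 often had several motifs. One copy was found in 320 of the 690 and 2 or more in 213 (30.9%, 27.4 to 34.5). Counting the variant GGCCGC as well, 593 had a motif (85.9%, 83.1 to 88.4), 60 of them through the variant alone. A couple of motifs of either kind with starts less than 38 bp apart was present in 195 peaks with KAP1 (28.3%, 24.9 to 31.8) and in 0 of 562 without (upper limit 0.654%). In 187 of the 195 the couple did not rest on overlapping matches. The median distance from the ZFP57 peak centre to the nearest TGCCGC was 51 bp.

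Among all 2080 distinct hexanucleotides, the reverse complements being joined, TGCCGC had the largest difference in share between the classes. It was followed by TGCGGC (in 70.3% with KAP1 and 1.60% without), CTGCGG (64.2% and 3.57%) and TTGCCG (61.8% and 1.78%), which all overlap the extended motif. The next word was a different one, GGCCAG, which was in 59.0% of peaks with KAP1, 12.1% of those without and 22.7% of windows of 450 bp. Peaks over 5 kb were left out of this ranking. Peaks with the repeated 12-mer described below were kept, so words of that repeat were not set apart from other words.

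The bases next to the motif were also uneven. In peaks with KAP1, A followed TGCCGC at 547 of 1013 copies (54.0%), against 29.4% of the 157515 autosomal copies. T preceded it at 46.3% against 20.9%. The repeated 12-mer described below fixes both neighbours. Without its exact copies A followed at 313 of 779 (40.2%, against 26.3% of the autosomal copies outside it) and T preceded at 235 (30.2% against 17.4%). Any diverged copies of the repeat, and each copy in a tandem array, stayed in these counts. Only 18 copies lay in peaks without KAP1, too few to compare. All counts of flanking bases exclude peaks over 5 kb.

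Base composition differed in the same way. The median GC content was 49.8% with KAP1 and 40.0% without, against 41.8% of windows of 450 bp. The median CpG density was 34.7 per kb (32.0 to 36.7) with KAP1 and 4.44 per kb (3.33 to 6.67) without, against 6.67 per kb of windows. Hence peaks without KAP1 were no richer in CpG than the genome.

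Peaks without KAP1 were not placed near KAP1 either. Their median gap to the nearest KAP1 peak was 15600 bp (interquartile range 6150 to 35512), and windows of 450 bp without KAP1 had a median gap of 16200 bp (6150 to 35250).

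**Figure D2:**
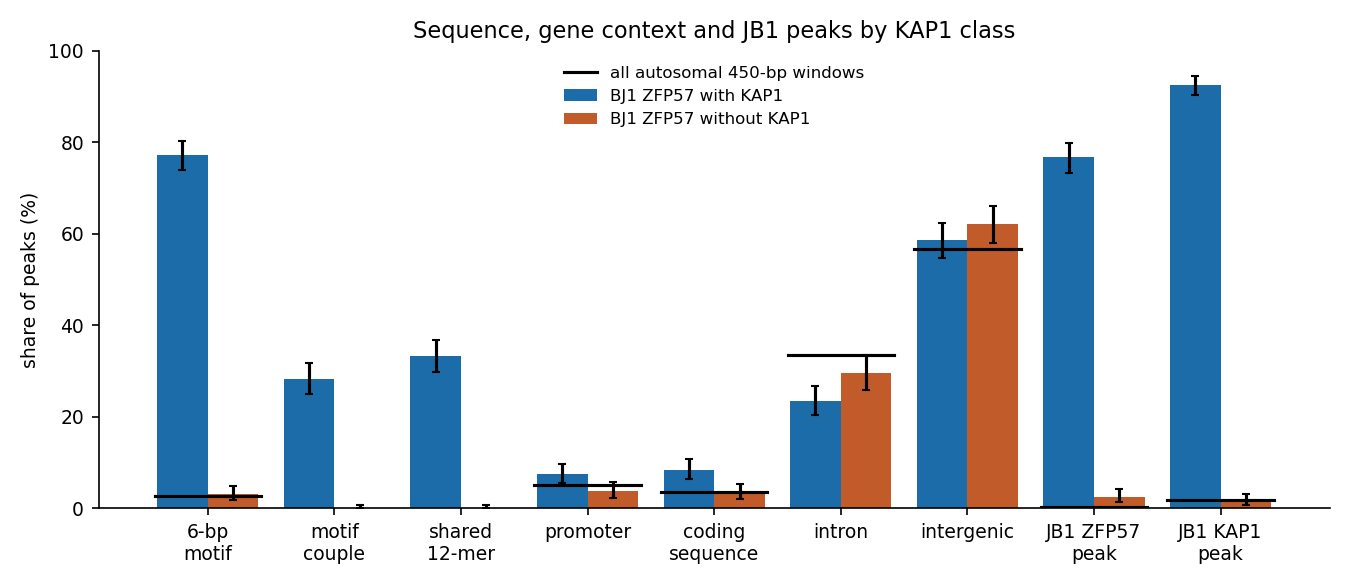
Percentage of BJ1 ZFP57 peaks with (blue, n = 690) and without (orange, n = 562) KAP1 that hold the 6-bp motif TGCCGC, a motif couple or the shared 12-mer described below, that lie in each gene context, or that overlap a JB1 peak. Error bars are exact 95% intervals and black lines give the share of all autosomal 450-bp windows, shown where it was computed; motif and JB1 shares are higher in the class with KAP1 than in the class without. The 12-mer was chosen in the class with KAP1.

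Many of the motifs with KAP1 lay in a repeated sequence. The most frequent 12-mer around TGCCGC occurred in 229 of 690 peaks with KAP1 (33.2%, 29.7 to 36.8), or in 229 of the 533 that had TGCCGC. It was chosen in this class and contains the motif, so the classes cannot be compared by it, and none of the 17 peaks without KAP1 that had TGCCGC held it. In the lists of JB1 it was in 3026 of the 4713 ZFP57 peaks with KAP1 and TGCCGC, and in 1 of the 59 peaks without KAP1 that had TGCCGC. The 12-mer and its 3 most frequent contexts are shown from the strand of the motif, which is in capitals. The contexts occurred in 99, 46 and 25 peaks with KAP1 and had 1978, 941 and 1785 autosomal copies.
Shared 12-mer: tTGCCGCagaag
Context 1: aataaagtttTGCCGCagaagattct
Context 2: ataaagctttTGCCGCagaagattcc
Context 3: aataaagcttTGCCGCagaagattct

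Of the 6659 autosomal copies of the 12-mer, 6136 (92.1%) were inside BJ1 KAP1 peaks, and 232 (3.48%) were inside both a KAP1 and a ZFP57 peak. For TGCCGC as a whole, 19140 of 157515 copies (12.2%) were in KAP1 peaks and 1019 (0.647%) in both. Of the KAP1 peaks with the 12-mer 4.36% (3.85 to 4.93) carried ZFP57, against 4.11% (3.78 to 4.46) of all KAP1 peaks with TGCCGC. Reads from near-identical copies may be hard to place, and how such reads were handled is not given in the sources used here.

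Peaks with the 12-mer differed in shape from the other 304 peaks with KAP1 and TGCCGC. The median KAP1 width around them was 2400 bp (2100 to 2550), against 900 bp (900 to 900) for the others. ZFP57 widths were closer, with medians of 450 and 600 bp. The 12-mer peaks seldom had a second TGCCGC (22 of 229, 9.61%), whereas most of the others did (191 of 304, 62.8%). By position, 72.9% of the 12-mer peaks were intergenic against 42.8% of the others, and none of the 229 was near a gene of the imprinted list.

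ZFP57 lay inside the KAP1 peak. Of the 690 peaks with KAP1, 674 (97.7%, 96.3 to 98.7) were wholly within it, and the median ZFP57 peak was 50% as wide as its KAP1 peak. The ZFP57 and KAP1 centres were a median of 75 bp apart (75 to 150), less than a grid step. They were within 150 bp in 442 pairs (64.1%, 60.4 to 67.6), of which 175 had the same centre. Another 167 pairs (24.2%, 21.1 to 27.6) were over 500 bp apart.

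The distance between centres followed the width of the KAP1 peak, which limits how far ZFP57 can lie from its centre. For KAP1 peaks under 1000 bp the median distance was 75 bp (n = 323), for those of 1000 bp to under 2000 bp it was 150 bp (n = 191), and for those of 2000 bp or more it was 938 bp (n = 176, 900 to 975). In this widest class the nearest TGCCGC stayed close to the ZFP57 centre, at a median of 72 bp, but was 1012 bp from the KAP1 centre.

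Pairs with distant centres were mostly those with the repeated 12-mer, which was in 132 of the 167 pairs over 500 bp apart (79.0%, 72.1 to 84.9). In KAP1 peaks of 2000 bp or more, ZFP57 peaks with the 12-mer lay near an edge. Their centres were a median of 450 bp from the nearer edge (n = 133), and in 80 of the 133 the ZFP57 peak ended within 150 bp of the KAP1 edge. The 21 peaks with TGCCGC outside the 12-mer were a median of 900 bp from the edge. The median KAP1 widths were alike, 3000 and 2850 bp.

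Both edges were used, as 83 of the 133 lay to the right of the KAP1 centre in genome coordinates and 50 to the left. With respect to the strand of the 12-mer, KAP1 reached further 3′ of it in 69 and further 5′ in 63. The KAP1 peak held 1 copy of the 12-mer in 75 pairs and 2 copies in 56.

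**Figure D3:**
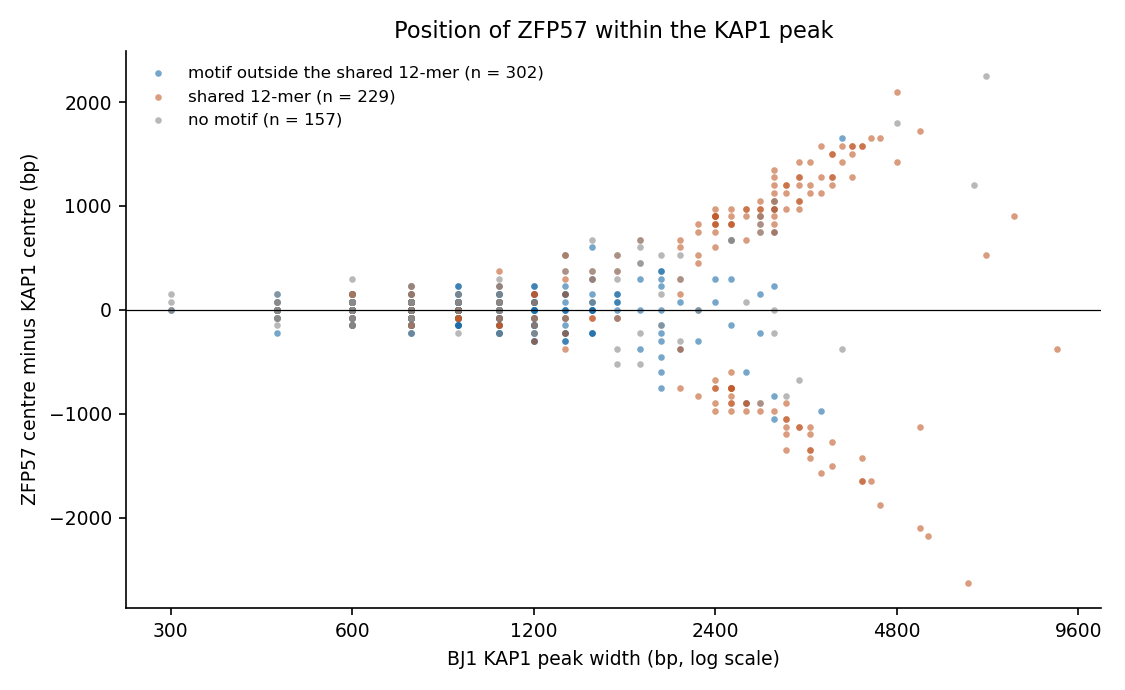
Signed distance of the BJ1 ZFP57 centre from the BJ1 KAP1 centre (bp) against KAP1 peak width (bp, log scale), 1 point for each of 688 ZFP57 peaks with KAP1 (2 in KAP1 peaks over 10 kb are not drawn). Colour gives the motif class; in KAP1 peaks of 2000 bp or more the peaks with the 12-mer form an arm on each side of 0, with a median distance of 975 bp.

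Among the pairs with the largest offset, *Dux* came first at 6825 bp. The next was a peak 32.5 kb from the start of *4930479D17Rik*, 2625 bp to the left of the centre of a KAP1 peak of 6300 bp. A peak near *Zfp791* was 2250 bp to the right in a KAP1 peak of 6750 bp, and held 3 GGCCGC but no TGCCGC. In an intron of *Padi2*, a peptidylarginine deiminase gene, a ZFP57 peak of 450 bp lay 2175 bp to the left in a KAP1 peak of 5400 bp.

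Within 10 kb of imprinted genes every ZFP57 peak had KAP1. Of 50 imprinted genes found in the annotation, 25 had a ZFP57 peak in the gene or within 10 kb, against 2.45% of all 34653 autosomal genes. These were 20 peaks, and all 20 had KAP1 and lay wholly inside the KAP1 peak. Over all autosomal genes, 1.48% had a ZFP57 peak with KAP1 and 0.996% a peak without KAP1 in that distance. As the list comes from known imprinted genes, many of which are known ZFP57 targets, it is not independent of what ZFP57 is known to bind.

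These 20 peaks were wide and rich in motifs. Their median width was 975 bp, against 450 bp for the other 670 peaks with KAP1, and their median KAP1 width was 1500 bp against 1050 bp. They had a median of 4.5 TGCCGC against 1, and 16 of 20 had a motif couple against 179 of 670 (26.7%). Their median CpG density was 55.0 per kb against 33.3, and 15 of 20 were at a promoter against 36 of 670 (5.37%). None had the repeated 12-mer.

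At *Mest*, a paternally expressed hydrolase gene, the ZFP57 peak (chr6:30687151-30689100) was the widest of the 20 with 1950 bp, in a KAP1 peak of 2850 bp, and held 12 TGCCGC. The *Snrpn* peak (chr7:67148851-67150350), at the promoter of this splicing factor gene, was 1500 bp wide with 10 TGCCGC. Equally wide was that of *Peg3* (chr7:6681601-6683100), which encodes a zinc finger protein, with 7 copies. Also 1500 bp wide was the peak at *Blcap* and *Nnat* (chr2:157384951-157386450), whose KAP1 peak of 2700 bp reached to one side, with centres 600 bp apart. That was the largest offset of the list.

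Growth control genes were among the list. At *H19*, the noncoding RNA gene beside *Igf2*, 2 separate peaks of 750 bp each held 3 TGCCGC and lay 1653 and 3453 bp from the annotated start. The *Plagl1* peak, at a zinc finger gene, was 1050 bp wide with 6 TGCCGC, and the peak of *Grb10*, which encodes an adaptor of growth factor receptors, was 750 bp wide with 4. *Igf2r*, the receptor that clears IGF2, had a peak of 1050 bp with 5 copies in a KAP1 peak of 1950 bp. In *Kcnq1*, a potassium channel gene, the intronic peak was 600 bp wide with 3 TGCCGC and a GGCCGC.

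Another 2 peaks had no TGCCGC. The peak over *Commd1* and *Zrsr1* (chr11:22871851-22872900) was 1050 bp wide and had 2 GGCCGC, which overlap each other on opposite strands in the sequence shown. The peak near *Inpp5f* (chr7:135843301-135843750), at the promoter of its neighbour *Mcmbp*, had neither motif and was the narrowest, with ZFP57 and KAP1 peaks of the same 450 bp. It was also the only peak of the 20 that was not in the ZFP57 list of JB1, although KAP1 was present there in JB1.

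The other peaks were at *Gpr1*, *Nespas*/*Gnas*, *Gnas*, *Peg10*/*Sgce*, *Herc3*/*Nap1l5*, *Cdh15*, *Trappc9* and *Impact*, with 1 to 5 TGCCGC each. Beyond 10 kb, 4 ZFP57 peaks had their nearest start at a gene of the list. Those of *Meg3* (chr12:110765401-110767050, 1650 bp, 7 TGCCGC, 12.2 kb from the start) and *Rasgrf1* (chr9:89774251-89775000, 750 bp, 6 TGCCGC, 29.6 kb) had KAP1. Those of *Ube3a* (chr7:66467551-66467850, 16.3 kb) and *Herc3* (chr6:58750801-58751100, 30.4 kb) had neither KAP1 nor a motif and were 300 bp wide. Of the 25 imprinted genes with no ZFP57 peak in range, *Igf2*, *Cdkn1c*, *Rasgrf1* and *Meg3* were among 15 that had a BJ1 KAP1 peak, whereas *Ndn*, *Magel2* and *Dlk1* were among the 10 that had none. A KAP1 peak within 10 kb was common, being found for 58% of all autosomal genes.

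**Figure D4:**
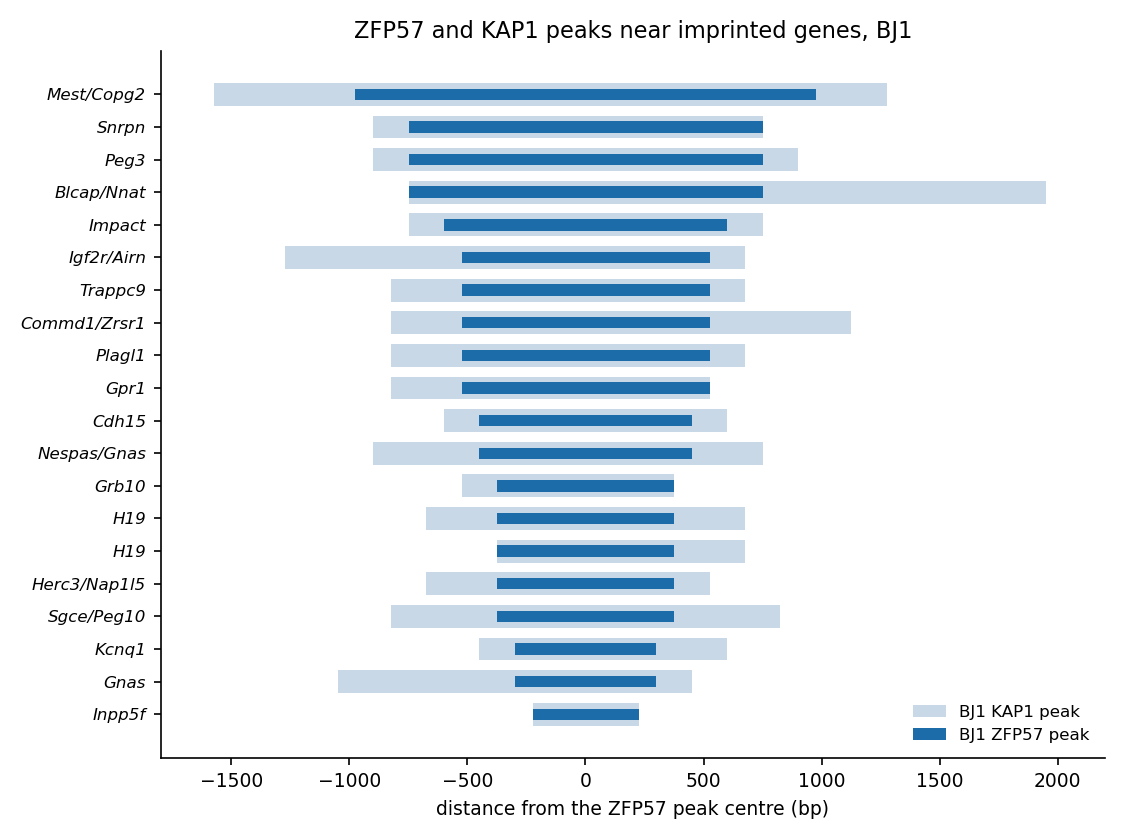
Extent of the 20 BJ1 ZFP57 peaks in or within 10 kb of imprinted genes (dark bars) and of the KAP1 peaks that hold them (light bars), as distance from the ZFP57 centre in bp, ordered by ZFP57 width. All dark bars lie within the light ones, from 450 bp near Inpp5f to 1950 bp at Mest.

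In gene context the classes differed less than in sequence. A promoter, within 1 kb of an annotated start, was overlapped by 51 of 690 peaks with KAP1 (7.39%, 5.55 to 9.60) and by 21 of 562 without (3.74%, 2.33 to 5.66), against 4.99% of windows of 450 bp. Of the 51, 15 were peaks of the imprinted list, and the other 670 peaks with KAP1 were at a promoter in 36 cases (5.37%, 3.79 to 7.36), an interval that held the share of windows. With promoters of 2.5 kb the shares were 13.6% with KAP1 and 8.90% without. With the widest 50% of each list they were 9.59% (6.94 to 12.8) with KAP1 and 6.22% (3.35 to 10.4) without. Intergenic sequence held 58.6% and 62.1%, against 56.6% of windows. Introns held 23.5% (20.4 to 26.8) of the peaks with KAP1, below the 33.4% of windows, and 29.5% of those without.

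Coding sequence was hit more often by peaks with KAP1. It held 58 of the 690 (8.41%, 6.44 to 10.7), against 19 of 562 without (3.38%, 2.05 to 5.23) and 3.44% of windows. The context shares here and above count any overlap and were not matched for width, which was larger with KAP1. Of those 58, 51 contained TGCCGC and 8 lay in coding sequence of numbered zinc finger genes of the *Zfp* series (13.8%, 6.15 to 25.4). Of the 19 without KAP1 2 did, *Zfp58* and *Zfp120* (10.5%, 1.30 to 33.1), and the intervals of the classes overlapped. Among windows over coding sequence 1.28% lay in such genes. The 8 with KAP1 were *Zfp11*, *Zfp13*, *Zfp553*, *Zfp629*, *Zfp651*, *Zfp768*, *Zfp777* and *Zfp787*, and the genes were counted after the contexts were known. The peaks of *Zfp11* and *Zfp629* were each 1650 bp wide with 5 and 6 TGCCGC, and that of *Zfp13* was 1200 bp wide with 3.

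Over all 341 numbered *Zfp* genes of the annotation, 17 (4.99%) had a ZFP57 peak in the gene or within 10 kb, 11 of them with KAP1 (3.23%) and 6 without (1.76%). Among all autosomal genes 2.45% had a ZFP57 peak, 1.48% one with KAP1 and 0.996% one without. Other promoter peaks with KAP1 included that of *Rnf19b*, an E3 ubiquitin ligase gene, which was 1050 bp wide, the same as its KAP1 peak, with 2 TGCCGC. At *Tcte2*, ZFP57 and KAP1 peaks of 3000 bp coincided without either motif, and the ZFP57 peak was not found in JB1. Among the peaks richest in TGCCGC were the array near *U5* with 37 copies, an intronic peak of *Arhgap10* with 19 and one of *Actl6a*, a chromatin remodelling subunit gene, with 13.

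At promoters, 47 of 51 peaks with KAP1 had TGCCGC (92.2%, 81.1 to 97.8), against 4 of 21 without (19%, 5.45 to 41.9). The 4 were at *Gm15319* (the peak of 58650 bp), *Gm12070*, *Cacng1* and *Gstp2*. The *Myod1* promoter, of the myogenic transcription factor, had a peak of 750 bp (chr7:53631901-53632650) with 1 GGCCGC and no TGCCGC, 20.1 kb from the nearest KAP1 peak. At *Ank1*, an ankyrin gene, a peak of 750 bp over the recurring units shown above had no motif and was 41.1 kb from KAP1. The promoters of *Litaf*, *Myo1h* and *Olfr1126* had peaks of 450 or 600 bp, also without a motif. The peaks at these 5 promoters from *Myod1* to *Olfr1126* were not found in JB1.

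Only 3 peaks without KAP1 had more than 1 TGCCGC. They were the peak of 58650 bp at *Gm15319*, a peak of 750 bp near *Gm16735* that abutted a KAP1 peak, and the peak of 450 bp near *AF529169*. The last overlapped both a ZFP57 and a KAP1 peak of JB1, and the nearest BJ1 KAP1 peak was 19.8 kb away. Those near *Gm15319* and *Gm16735* were not in the ZFP57 list of JB1.

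The JB1 lists, which had no part in forming the classes, separated them as well. Of the ZFP57 peaks with KAP1, 529 of 690 (76.7%, 73.3 to 79.8) overlapped a ZFP57 peak of JB1, against 14 of 562 without (2.49%, 1.37 to 4.14) and 0.342% of windows of 450 bp. With the widest 50% of each list the share without KAP1 was 14.8% (10.3 to 20.4). KAP1 of JB1 was present at 639 of the 690 (92.6%, 90.4 to 94.4) and at 9 of the 562 (1.60%, 0.735 to 3.02), against 1.77% of windows. Both JB1 lists had a peak at 521 of those with KAP1 and at 2 of those without, and 541 of the 562 had neither. The JB1 ZFP57 list is longer, with 9831 autosomal peaks, and depth, enrichment and cross direction cannot be told apart between the lines.

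Among peaks with KAP1, those missing from the JB1 ZFP57 list had the motif less often. TGCCGC was in 447 of the 529 shared peaks (84.5%, 81.1 to 87.5) and in 86 of the 161 others (53.4%, 45.4 to 61.3). The latter also had narrower KAP1 peaks, with a median of 750 bp against 1050 bp. Peaks with the 12-mer were in the JB1 list at 79.9% (74.1 to 84.9) and those with TGCCGC outside it at 86.8% (82.5 to 90.4). At 300 bp, 93 of 156 peaks with KAP1 and 4 of 383 without were in the JB1 list.

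The same division was made within JB1. KAP1 of JB1 was at 6036 of 9831 ZFP57 peaks (61.4%, 60.4 to 62.4), above the interval of BJ1. TGCCGC was in 78.1% (77.0 to 79.1) of those with KAP1 and in 1.55% (1.19 to 2.00) of the 3795 without, and both intervals overlapped those of BJ1. The median widths were 450 and 300 bp in both lines, but fewer of the JB1 peaks without KAP1 were 300 bp wide (55.5%, 53.9 to 57.1). The 12-mer was in 50.1% (48.9 to 51.4) of the JB1 peaks with KAP1, against 33.2% in BJ1. Peaks of BJ1 and JB1 overlap in part, so the lines are not independent in sequence.

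In mm9, the B6 sequence, another 97 peaks with KAP1 (14.1%, 11.6 to 16.9) had neither TGCCGC nor GGCCGC. Their KAP1 peaks had a median width of 600 bp, and their median CpG density was 11.1 per kb (6.67 to 15.6), between those of the classes as a whole. *Tcte2* and the peak near *Inpp5f* belonged to this group.

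Seen from KAP1, ZFP57 was found at wide and motif-rich peaks. KAP1 peaks with ZFP57 had a median width of 1050 bp (900 to 1050), against 600 bp for the 67789 without. TGCCGC was in 82.1% (79.0 to 84.9) of the first and 19.3% of the second. As a wider sequence holds a motif more often (5.34% of autosomal windows of 900 bp), width and motif number are linked. The share of KAP1 peaks with ZFP57 rose from 0.0814% (0.0264 to 0.190) of 6145 peaks of 300 bp to 9.30% (7.52 to 11.4) of 935 peaks of 3000 bp or more.

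With the number of motifs the share rose further. ZFP57 was at 0.222% (0.185 to 0.266) of 54852 KAP1 peaks without TGCCGC, at 2.04% (1.76 to 2.35) of 9407 with 1 copy and at 5.96% of 3270 with 2. It reached 15.1% (12.7 to 17.8) of 782 with 3 copies and 34.4% (27.1 to 42.3) of 160 with 4 or more. Most KAP1 peaks with the motif were not in the ZFP57 list, which held 560 of 13619. KAP1 peaks with ZFP57 were also found in JB1 KAP1 more often, at 92.5% against 44.5% of those without.

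**Figure D5:**
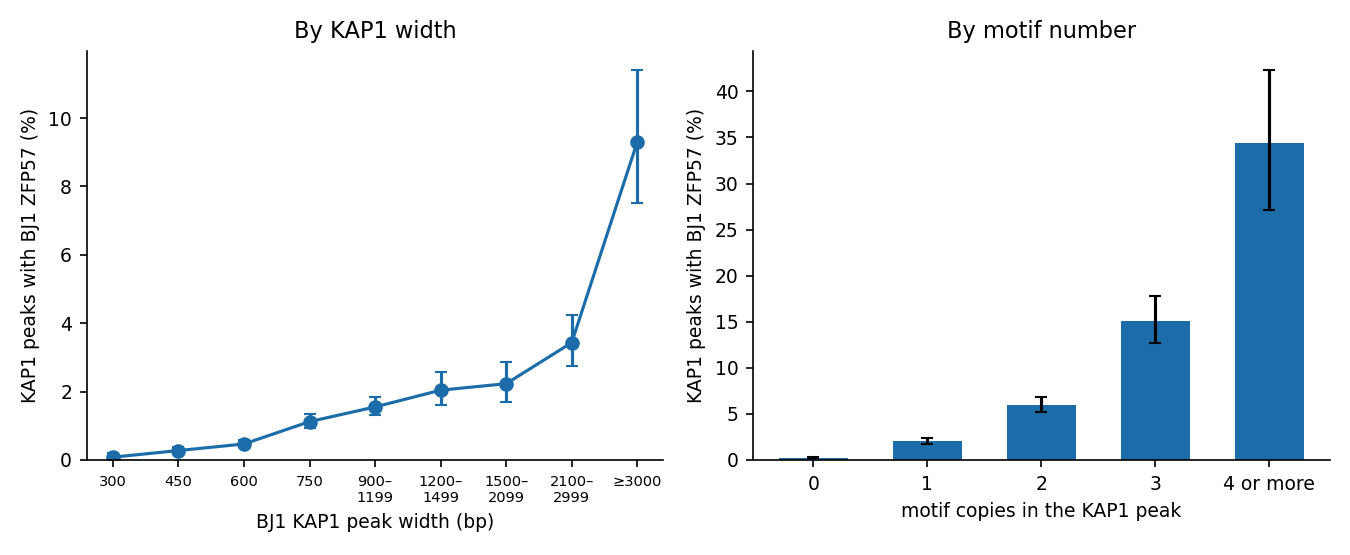
Percentage of autosomal BJ1 KAP1 peaks that carry a BJ1 ZFP57 peak, by KAP1 peak width in bp (left) and by the number of TGCCGC copies in the KAP1 peak (right), with exact 95% intervals as error bars. The share rises from 0.0814% at 300 bp to 9.30% at 3000 bp or more and from 0.222% with no copy to 34.4% with 4 or more.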

How the data were processed

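ChIP-seq peaks of ZFP57 and KAP1 in BJ1 were compared, and those of JB1 served as a second line, with 1 library each. No use was made of the 2 input libraries. Single-end reads of 50 bp were trimmed by the authors (CASAVA 1.8.2, Trim Galore) and mapped to mm9 in Bowtie 0.12.7 with at most 2 mismatches. The paper states that peaks were defined by MACS with a *P*-value under 1e-05. Whether the deposited lists, with their grid of 150 bp, are that output could not be checked. SAMtools 0.1.18 and bedtools 2.14.3-1 are named in the submitters' processing notes. The deposited lists give positions only, so depth, counts and heights are unknown and no test across samples was possible.

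Autosomal peaks sharing at least 1 bp were counted as overlapping. Sequence was read from NCBIM37 (mm9) and genes from GENCODE M1 with Python 3.11.15, numpy 2.4.6, pandas 2.3.3 and scipy 1.17.1. A peak was assigned to a promoter within 1 kb of a start, then to coding sequence, UTR, other exon, intron or intergenic sequence. Motifs were exact matches on both strands of mm9, the B6 sequence, so motifs found only on the JF1 allele were not counted. Medians have order-statistic 95% intervals. Windows are all autosomal windows without unknown bases, laid end to end. Overlap and interval functions were tested on simulated data.

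Named peaks were those within 10 kb of imprinted genes, the 10 widest peaks and 10 widest promoter peaks of each class, the 5 with most TGCCGC of each class, the 5 largest offsets, and up to 4 per other gene list, from which the text takes examples. Members and lists were chosen with earlier results of these data known, and the 12-mer, the edge distances, the promoter motif counts, the coding *Zfp* count, the peaks beyond 10 kb of imprinted genes and the promoter share without the imprinted list were added after the data were seen.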

Additional observations from a re-analysis of the deposited data

How the results depend on the processing

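Of 82 values of 13 results under the alternatives, 67 stayed within the 95% interval of the value given above and 15 moved. Requiring KAP1 over at least 50% of the ZFP57 peak, requiring the ZFP57 centre inside KAP1, leaving out ZFP57 peaks over 5 kb and including the sex chromosomes moved none. With the widest 50% of each list, which by construction drops narrow KAP1 and JB1 peaks, KAP1 was at 66.6% of ZFP57 peaks and ZFP57 at 1.20% of KAP1 peaks. Median widths were then 600 bp with KAP1, 450 bp without and 1200 bp for KAP1 peaks with ZFP57. In that setting TGCCGC was in 85.6% with KAP1 and 12.4% without, and JB1 ZFP57 at 81.8% and 14.8%. Promoters were at 9.59% with KAP1, which stayed within its interval, and at 6.22% without. Counting KAP1 within 1 kb as present gave 1.22% of KAP1 peaks with ZFP57 and 94.4% of ZFP57 peaks wholly inside. Promoters of 2.5 kb gave 13.6% with KAP1 and 8.90% without, and TGCCGC or GGCCGC gave 85.9% with KAP1. No paired analysis was possible because each line and antibody has 1 library. The order of the classes was the same in all alternatives run. Without depth or scores, a ZFP57 peak without KAP1 shows only that no KAP1 peak was called there.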

Other observations

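Among all autosomal genes, 58% had a BJ1 KAP1 peak and 2.45% a BJ1 ZFP57 peak in the gene or within 10 kb. Of 24 pluripotency genes, 21 had a KAP1 peak in that distance and 0 had a ZFP57 peak. Of 40 *Hox* genes, which pattern the body axis, 21 had KAP1 and 0 had ZFP57, and the ribosomal protein genes gave 43 and 0 of 72. Of 25 protocadherin genes, 7 had KAP1 and 0 had ZFP57. A count of 0 ZFP57 in lists of this size is near the background. Of 25 genes of the repressor machinery, 21 had KAP1, and ZFP57 was found only in an intron of *Smarcad1*, a chromatin remodeller gene, with KAP1, 1 TGCCGC and 1 GGCCGC.

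Of 22 germline genes, 2 had a ZFP57 peak, 1 with KAP1 and 1 without, against 1.48% and 0.996% of all autosomal genes. In *Tdrd9*, a helicase gene of the piRNA pathway, the intronic peak had KAP1 and 2 GGCCGC and was also in the JB1 ZFP57 list. In *Ddx4*, the germ cell helicase gene, the intronic peak was 300 bp wide, without a motif, 77.8 kb from KAP1 and not in JB1. Of 12 genes of the two-cell stage, *Dux* and *Tdpoz3* had ZFP57 peaks, both with KAP1, and the *Tdpoz3* peak had no motif and no JB1 peak of either kind.

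Chromosome 1 held 97 of the 562 peaks without KAP1 (17.3%, 14.2 to 20.6) and 65 of the 690 with KAP1 (9.42%, 7.35 to 11.8), and it makes up 8% of the autosomal bases. In JB1 it held 12.6% (11.6 to 13.7) of the ZFP57 peaks without KAP1 and 8.04% (7.36 to 8.75) of those with KAP1. It held 8.33% of BJ1 KAP1 peaks. The share of ZFP57 peaks with KAP1 was 40.1% on chromosome 1 and lower still on chromosome 3, at 34.8% of 66. Chromosome 3 held 7.65% (5.59 to 10.2) of the BJ1 peaks without KAP1 and 3.33% (2.12 to 4.96) of those with KAP1, and makes up 6.53% of the bases. In JB1 it held 7.4% (6.59 to 8.28) of the ZFP57 peaks without KAP1 and 6.49% (5.89 to 7.15) of those with KAP1. These JB1 intervals overlapped. Both chromosomes were chosen after their values were seen.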
